A study of Mus musculus with 54 samples.

Results

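NF-κB is a family of dimeric transcription factors that are held in the cytoplasm by inhibitor proteins, the IκBs, until a receptor such as the LPS receptor or the TNF receptor activates the IκB kinase complex. The canonical branch degrades IκBα and releases dimers of RelA or c-Rel with p50, the product of Nfkb1, whereas the non-canonical branch processes the Nfkb2 product and releases RelB. Several of these genes are themselves NF-κB targets, so that activation in macrophages is followed by the resynthesis of inhibitors and of some subunits.

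The 10 genes described here were chosen by symbol and comprise the 5 subunits Rela, Relb, Rel, Nfkb1 and Nfkb2, the 3 classical IκB genes Nfkbia (IκBα), Nfkbib (IκBβ) and Nfkbie (IκBε), and the 2 nuclear members of the inhibitor family, Nfkbiz (IκBζ) and Bcl3, which bind p50 or p52 dimers on DNA. They were 10 of the 39179 genes in the count tables, and all 10 passed the expression filter in both experiments. Each was followed across 15 conditions of mouse macrophages.

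All macrophages were thioglycolate-elicited peritoneal exudate cells of C57BL/6 mice aged 8 to 20 weeks, of which the adherent cells were used without further sorting, so the samples are bulk RNA of a cell mixture. In the polarization experiment, 3 mice each gave macrophages kept for 24 h without stimulus (M0), in LPS at 100 ng/ml together with IFNγ at 50 ng/ml (M1-like), or in IL-4 at 10 ng/ml (M2-like), and each was sequenced as 2 technical replicates (18 single-end libraries). In the reprogramming experiment, 12 conditions with 3 replicates each were sequenced (36 paired-end libraries). These were the 3 polarization states left untransfected, the same states after transfection reagent alone (mock), and M2-like macrophages with a negative siRNA pool, with a pool against E2f1, Myc, Pparg or Stat6 (siE2f1, siMyc, siPparg and siStat6), or with all 4 pools combined (iM1 macrophages). Transfection followed the polarization of 24 h, and RNA was isolated 48 h after transfection. For M2-like macrophages transfected with siRNA pools, the study's methods state that IL-4 was left out of the later culture. Whether stimuli were also withdrawn from the M1-like and the untransfected samples is not stated. For the untransfected samples of this experiment no time is stated in the sources used here. The Myc pool came from another supplier than the E2f1, Pparg and Stat6 pools, so the target and the make of this pool cannot be told apart. Where RNA extraction for quantitative PCR is described, the study's methods call the 3 replicates of the iM1 and the polarized or unpolarized macrophages biological, while the labels of the sequenced reprogramming samples do not tie replicates to separate animals, so their p-values measure the spread between these samples. As the experiments were sequenced in different facilities, any difference in culture and that in sequencing cannot be told apart, and no level was tested across them.

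Depth was 19714994 to 29880494 counted reads per library in the polarization experiment, 39577911 to 59443987 after the technical replicates were summed, and 13421854 to 19704195 in the reprogramming experiment. Expression is given as CPM, read counts scaled to the same total with TMM-scaled library sizes, and a gene was called higher or lower at an adjusted p below 0.05 in edgeR's quasi-likelihood test over all genes tested. The 7 macrophage markers Adgre1, Csf1r, Cd68, Lyz2, Itgam, Mertk and Fcgr1 summed to 10281 to 17376 CPM and to 6211 to 18319.8 CPM in the 2 experiments. Of the other cell types, T cell markers stayed at or below 1.83 CPM, whereas B cell markers reached 124 CPM and mesothelial cell and fibroblast markers 256 CPM in the reprogramming experiment. In bulk samples, fewer cells of a type and less RNA per cell cannot be told apart.

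The promoters are shown for members that differed most in their response, namely Nfkbia, Nfkbie and Nfkb2, which had the largest fold changes in M1-like against M0 macrophages at 24 h, Rel, which had the smallest in that comparison, and Nfkbib. RefSeq windows of 300 bases around the start of transcription (250 before to 50 after, GRCm38.p6) were found for 7 of the 10 members, and they are printed 5′ to 3′ on the strand of the gene, with matches to the κB consensus on either strand in capitals. The lines give Nfkbia (chr12:55492598-55492897, minus strand), Nfkbie (chr17:45555450-45555749, plus strand), Nfkb2 (the most upstream of its 3 windows, chr19:46304487-46304786, plus strand), Rel (chr11:23770920-23771219, minus strand) and Nfkbib (chr7:28766595-28766894, minus strand).
Nfkbia: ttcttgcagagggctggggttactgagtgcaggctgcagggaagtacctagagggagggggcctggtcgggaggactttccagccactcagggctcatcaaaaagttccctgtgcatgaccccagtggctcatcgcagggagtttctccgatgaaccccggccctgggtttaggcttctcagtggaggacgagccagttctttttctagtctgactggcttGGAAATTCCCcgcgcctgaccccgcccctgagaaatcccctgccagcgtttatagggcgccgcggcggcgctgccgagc
Nfkbie: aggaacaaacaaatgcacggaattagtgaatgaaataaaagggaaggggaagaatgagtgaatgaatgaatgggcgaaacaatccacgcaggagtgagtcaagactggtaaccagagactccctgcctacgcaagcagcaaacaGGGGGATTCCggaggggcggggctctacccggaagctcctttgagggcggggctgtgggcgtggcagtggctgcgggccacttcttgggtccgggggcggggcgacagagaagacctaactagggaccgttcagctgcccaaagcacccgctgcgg
Nfkb2: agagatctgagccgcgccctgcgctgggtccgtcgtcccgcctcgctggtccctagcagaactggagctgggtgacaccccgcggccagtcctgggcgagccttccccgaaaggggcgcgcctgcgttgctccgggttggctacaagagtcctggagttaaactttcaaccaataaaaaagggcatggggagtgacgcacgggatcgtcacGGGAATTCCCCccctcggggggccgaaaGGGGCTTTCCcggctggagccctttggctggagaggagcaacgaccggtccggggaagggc
Rel: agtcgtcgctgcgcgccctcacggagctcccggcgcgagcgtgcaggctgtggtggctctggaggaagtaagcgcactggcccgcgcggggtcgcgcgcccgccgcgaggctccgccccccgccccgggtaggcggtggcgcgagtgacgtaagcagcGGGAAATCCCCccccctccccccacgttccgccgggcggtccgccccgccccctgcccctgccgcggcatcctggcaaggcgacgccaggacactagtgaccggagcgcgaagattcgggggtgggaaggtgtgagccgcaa
Nfkbib: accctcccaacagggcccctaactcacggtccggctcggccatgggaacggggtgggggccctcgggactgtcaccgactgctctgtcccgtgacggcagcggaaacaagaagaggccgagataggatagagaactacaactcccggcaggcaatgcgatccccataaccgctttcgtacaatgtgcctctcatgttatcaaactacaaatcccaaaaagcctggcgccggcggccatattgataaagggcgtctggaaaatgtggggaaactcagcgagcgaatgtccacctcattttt

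The κB consensus was found in 4.51% of all 32851 promoter windows and in windows of 5 members. In Nfkbia the match began 29 bases before the start of transcription, in Nfkbie 106 bases before it, and in Bcl3 (chr7:19822706-19823005, minus strand) 2 bases after it. The Nfkb2 window shown held 3 matches, of which those 39 and 38 bases before the start overlap and the other lay 11 bases before it, and the 2 matches of Rel, 92 and 91 bases before the start, also overlap. No match lay in the windows of Nfkbib and Rela (chr19:5637291-5637590, plus strand). The E-box CACGTG, a sequence bound by Myc and related factors, occurred in 7.15% of all windows and in none of the 7 members'. The palindrome TTCNNNGAA bound by several STAT proteins occurred in 8.3% of all windows and, among the members, in the Nfkb2 window shown, 148 bases before the start. Its wider spacing typical of STAT6 occurred in 6.95% and in none of the 7 members' windows. All motifs were searched on both strands. These matches describe letters in the windows, not occupied sites, and no match says only that these letters were absent there.

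The genes lie on chromosomes 3 (Nfkb1, 135584655 to 135691547, minus strand), 7 (Relb, 19606217 to 19629438, Bcl3, 19808462 to 19822770, and Nfkbib, 28758251 to 28767512, all minus strand), 11 (Rel, 23736847 to 23770970, minus strand), 12 (Nfkbia, 55489410 to 55492647, minus strand), 16 (Nfkbiz, 55811375 to 55838899, minus strand), 17 (Nfkbie, 45555703 to 45563169, plus strand) and 19 (Rela, 5637483 to 5648130, and Nfkb2, 46304320 to 46312385, both plus strand) of GRCm38. Exons of Nfkbib overlap those of Sirt2 on the opposite strand over 42 bases and those of Ccer2 over 314 bases, exons of Nfkb2 overlap those of Psd over 299 bases and those of the non-coding AC114539.1 over 531 bases, and exons of Bcl3 overlap those of the antisense gene Gm16175 over 161 bases, all on the opposite strand. Whether counting used strand is not stated, so reads from these stretches cannot be assigned to one partner. Over all 54 libraries Sirt2 had 185740 reads against 57530 of Nfkbib, Psd had 6171 against 85129 of Nfkb2, and Gm16175 had 33 against 17161 of Bcl3. AC114539.1 was not analysed here.

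At 24 h, all 10 genes were higher with LPS and IFNγ than without stimulus, with a median log2 fold change of 2.62 against -0.04 over all genes. In this comparison 72.9% of the 16110 genes tested were called in either direction and 35.4% were called higher. The increases were unequal, from 4.26 on the log2 scale for Nfkbie to 0.51 for Rel.

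Among the classical inhibitors, Nfkbie had 9.22, 9.40 and 7.89 CPM in M0 and 168, 166 and 174 CPM in M1-like macrophages of mice 1 to 3. This was a 19.2-fold increase (log2 fold change 4.26 ± 0.08 SE, adjusted p = 5.40e-13), the largest among the 10 genes. Nfkbia, whose product is degraded and resynthesized in each round of canonical activation, rose from 35.2, 32.7 and 33.8 CPM to 355, 347 and 398 CPM (10.8-fold, log2 fold change 3.43 ± 0.08, adjusted p = 4.66e-12). Nfkbib went from 23.6, 21.8 and 20.7 CPM to 113, 119 and 131 CPM (5.49-fold, 2.46 ± 0.12, adjusted p = 2.83e-09). For each of the 3 genes, the lowest M1-like mouse was far above the highest M0 mouse.

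Of the subunits, Nfkb2 changed most, from 37.8, 34.9 and 33.2 CPM in M0 to 319, 316 and 317 CPM in M1-like macrophages (8.98-fold, log2 fold change 3.17 ± 0.07, adjusted p = 1.89e-12). Relb, the partner of the Nfkb2 product in the non-canonical branch, rose from 24.8, 20.4 and 18.2 CPM to 98.5, 94.8 and 104 CPM (4.69-fold, 2.23 ± 0.10). Rela rose 3.40-fold, from 72.4, 68.8 and 65.3 CPM to 244, 223 and 234 CPM. Nfkb1 rose 3.04-fold, from 92.0, 89.2 and 87.7 CPM to 284, 271 and 263 CPM. Rel was the exception in size, with 16.7, 16.6 and 17.8 CPM in M0 and 25.8, 24.9 and 22.2 CPM in M1-like macrophages (1.42-fold, 0.51 ± 0.07, adjusted p = 5.55e-05). The nuclear inhibitors lay between these, with Nfkbiz at 7.12, 6.21 and 6.67 CPM in M0 and 44.0, 42.9 and 51.4 CPM in M1-like macrophages (6.92-fold) and Bcl3 at 6.60, 5.78 and 6.10 against 44.8, 42.5 and 47.3 CPM (7.28-fold). Groups did not overlap for any of the 10 genes. The share of all genes without overlap is not given here, and 72.9% of all genes were called in this comparison.

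**Figure D1:**
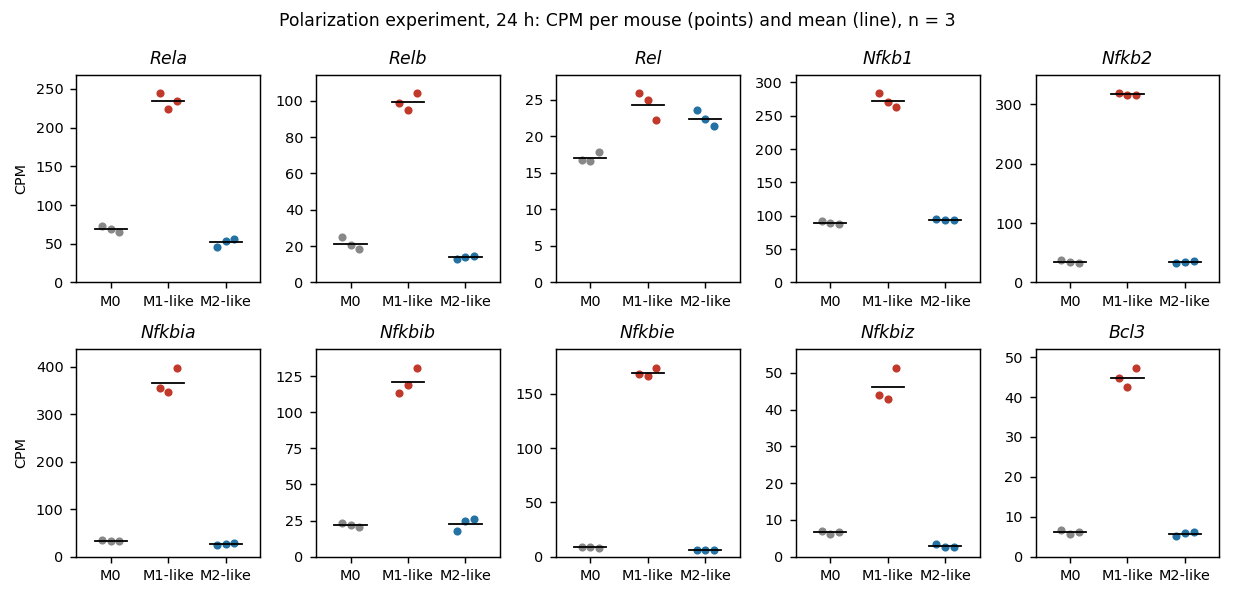
CPM of the 10 genes in the 3 states of the polarization experiment, with 1 point per mouse and the mean of 3 mice as a line; each vertical axis starts at 0 and has its own range. Nfkb2, Nfkbia and Nfkbie separate the M1-like mice most clearly, while Rel lay at 21.4 to 23.5 CPM in the M2-like and at 22.2 to 25.8 CPM in the M1-like state.

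IL-4 moved the same genes differently. In M2-like against M0 macrophages at 24 h, 5 genes were lower, 1 was higher and 4 were not called. Of all genes, 27.9% were called in either direction, 14.4% lower and 13.5% higher. Nfkbiz, an inducer of a subset of secondary inflammatory genes, showed the largest decrease, from 7.12, 6.21 and 6.67 CPM to 3.45, 2.62 and 2.77 CPM (log2 fold change -1.19 ± 0.12, adjusted p = 2.52e-05). Relb (-0.59 ± 0.10), Nfkbie (-0.51 ± 0.08), Rela (-0.40 ± 0.08) and Nfkbia (-0.31 ± 0.08) were also lower. The call of Nfkbia was lost without M0 mouse 1 (adjusted p = 0.066). Rel was the gene that rose with IL-4, to 23.5, 22.3 and 21.4 CPM (0.39 ± 0.07, adjusted p = 0.00227). In M1-like against M2-like macrophages, Rel was accordingly the member that was not called (0.12 ± 0.07, adjusted p = 0.171, 95% interval -0.04 to 0.28), while the other 9 were higher in M1-like macrophages, against 72.6% of all genes called in either direction and 34.6% called higher. Without M1-like mouse 3, Rel was called as well (0.18, adjusted p = 0.0453).

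Levels of different genes can be compared only per length. Per kilobase of exon, Nfkbia was the most abundant member in M1-like macrophages at 24 h (228 ± 17.1 CPM per kb, SD, n = 3), followed by Rela (76.2 ± 3.37) and Nfkb2 (69.1 ± 0.35), with Rel the least abundant (3.26 ± 0.25). In M0 macrophages Rela was at 22.4 ± 1.16, Nfkbia at 21.1 ± 0.77 and Nfkb1 at 7.43 ± 0.18, and by the longest coding transcript they were at 25.3 ± 1.31, 21.5 ± 0.78 and 21.8 ± 0.52, so that their order depended on the length used. Of the summed subunit RNA per kilobase, Nfkb2 made up 17.0% ± 0.14 in M0 and 35.2% ± 0.69 in M1-like macrophages, while Rela went from 49.5% ± 0.43 to 38.7% ± 0.78 and Rel from 5.06% ± 0.47 to 1.66% ± 0.13. The ratio of the 3 classical inhibitors to the 5 subunits, both per kilobase, was 0.754 ± 0.0165 for M0, 1.72 ± 0.115 after LPS with IFNγ and 0.758 ± 0.0525 after IL-4. With the longest coding transcript as length the ratios were 0.526 ± 0.00991, 1.28 ± 0.0855 and 0.512 ± 0.0421, so the M1-like ratio was the highest by either length. The level of Nfkb1 depended on the length used, at 22.6 CPM per kb of all exons and 66.2 CPM per kb of the longest coding transcript in M1-like macrophages.

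The rest of the pathway was described with lists by role, beside the 35.4% of all genes called higher and 72.9% called in either direction in the same comparison. Of the 21 target genes tested of 22, all 21 rose over M0 with LPS and IFNγ at 24 h, with a median log2 fold change of 5.86, among them Tnf (6.32 ± 0.14), Il6 (10.98 ± 0.37), Il1b (9.11 ± 0.26), Cxcl1 (3.82 ± 0.14), Icam1 (6.08 ± 0.09) and Tnfaip2 (2.18 ± 0.08). Of the 12 feedback inhibitors, 9 were higher and 3 lower. Tnfaip3, which encodes the ubiquitin-editing enzyme A20, rose by 2.84 ± 0.06 and its partner Tnip1 by 2.05 ± 0.07, whereas Nfkbid, a further nuclear IκB gene, fell by 0.46 on the log2 scale and Otulin, a deubiquitinase of linear chains, fell by 1.01. Tnip3 was the feedback inhibitor called higher both with LPS and IFNγ (2.31 ± 0.11) and with IL-4 (1.93 ± 0.11). Of the 15 kinases and genes of the non-canonical branch, 12 were higher and 3 lower, with Cd40, a receptor that feeds into the non-canonical branch, at 7.61 ± 0.11, Traf3, which keeps that branch off in resting cells, at 1.51 ± 0.06, and Map3k14, its kinase NIK, at 0.84 ± 0.08. Of the 17 receptors and adaptors, 10 were higher and 5 lower.

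In the reprogramming experiment, the untransfected M1-like macrophages had more RNA of 7 of the 10 genes than M0 macrophages, and no member was lower, where 57.7% of the 14172 genes tested were called in either direction and 29% were called higher. The order of the genes differed in part from 24 h. Nfkbie was again the largest, at 7.47, 11.5 and 8.80 CPM in M0 and 22.9, 32.6 and 24.5 CPM in M1-like macrophages (log2 fold change 1.52 ± 0.24, adjusted p = 2.13e-06). It was followed by Nfkbib, at 47.5, 39.9 and 40.6 CPM against 94.6, 90.0 and 117 CPM (1.24 ± 0.10, adjusted p = 3.45e-12), whose exons are the ones that overlap Sirt2. Nfkbia, with 24.4, 27.4 and 23.9 CPM in M0 and 22.5, 44.8 and 33.0 CPM in M1-like macrophages, was not called (0.40 ± 0.21, adjusted p = 0.106), and the M1-like replicates overlapped those of M0. Without M1-like replicate 1 (0.62, adjusted p = 0.0147) and without a filter on low counts (0.40, adjusted p = 0.00214) it was called. Nfkb2 was called at 0.38 ± 0.14 but not without M0 replicate 2 or 3 or M1-like replicate 2 or 3 (log2 fold change 0.30 to 0.34). Rel (-0.16 ± 0.14) and Nfkb1 (-0.03 ± 0.08) were not called. The smaller fold changes here than at 24 h were not tested as a difference, for the reasons given with the design.

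Against the untransfected M2-like macrophages, 8 members were higher and 1, Rel, was lower in M1-like macrophages (61.5% of all genes called in either direction, 31.3% higher and 30.2% lower). Rel had 17.8, 13.9 and 12.6 CPM in M1-like and 26.3, 21.2 and 18.2 CPM in M2-like macrophages (-0.56 ± 0.14, adjusted p = 0.00083). Replicate 1 was the highest of 3 in both groups, and the groups did not overlap. The B cell markers Cd79a, Cd79b, Ms4a1, Ighm and Pax5 moved the same way, all 5 being lower in M1-like macrophages, with a summed level of 4.58 to 19.1 CPM against 33.6 to 75.9 CPM in M2-like macrophages. Of the 7 macrophage markers, 5 were lower as well, with a sum of 6642 to 7786 CPM in M1-like and 15934 to 18319.8 CPM in M2-like macrophages, and so were the eosinophil (0.610 to 1.70 against 15.5 to 18.1 CPM) and mast cell markers (0.126 to 0.803 against 3.04 to 9.48 CPM) in sum. The part of these cell types in the levels of the members, among them Rel, which B cells express, was not tested. Nfkb1 was not called (0.11 ± 0.08, adjusted p = 0.227), except without M1-like replicate 1 (0.20, adjusted p = 0.0244), and Nfkbia, called at 0.71 ± 0.22, was not called without M1-like replicate 2 (0.44, adjusted p = 0.0943). In M2-like against M0 macrophages, Rel was the gene called (0.41 ± 0.14, adjusted p = 0.0366), where 19.9% of all genes were called, 10.7% higher and 9.19% lower, and this call was lost in 4 of the 6 fits that left out a replicate (without M0 replicate 2 or 3 or M2-like replicate 1 or 2, log2 fold change 0.26 to 0.43) and with only the compared groups in the model (adjusted p = 0.0547). In that model Nfkbia was called as lower instead (-0.30, adjusted p = 0.0463), and without a filter on low counts Nfkbie (-0.52, adjusted p = 0.0118) and Nfkbiz (-0.45, adjusted p = 0.0164) were called as lower beside Rel. Nfkbiz, at -0.45 ± 0.17 (adjusted p = 0.0646), was called as lower without M2-like replicate 2 (-0.73, adjusted p = 0.00545).

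**Figure D2:**
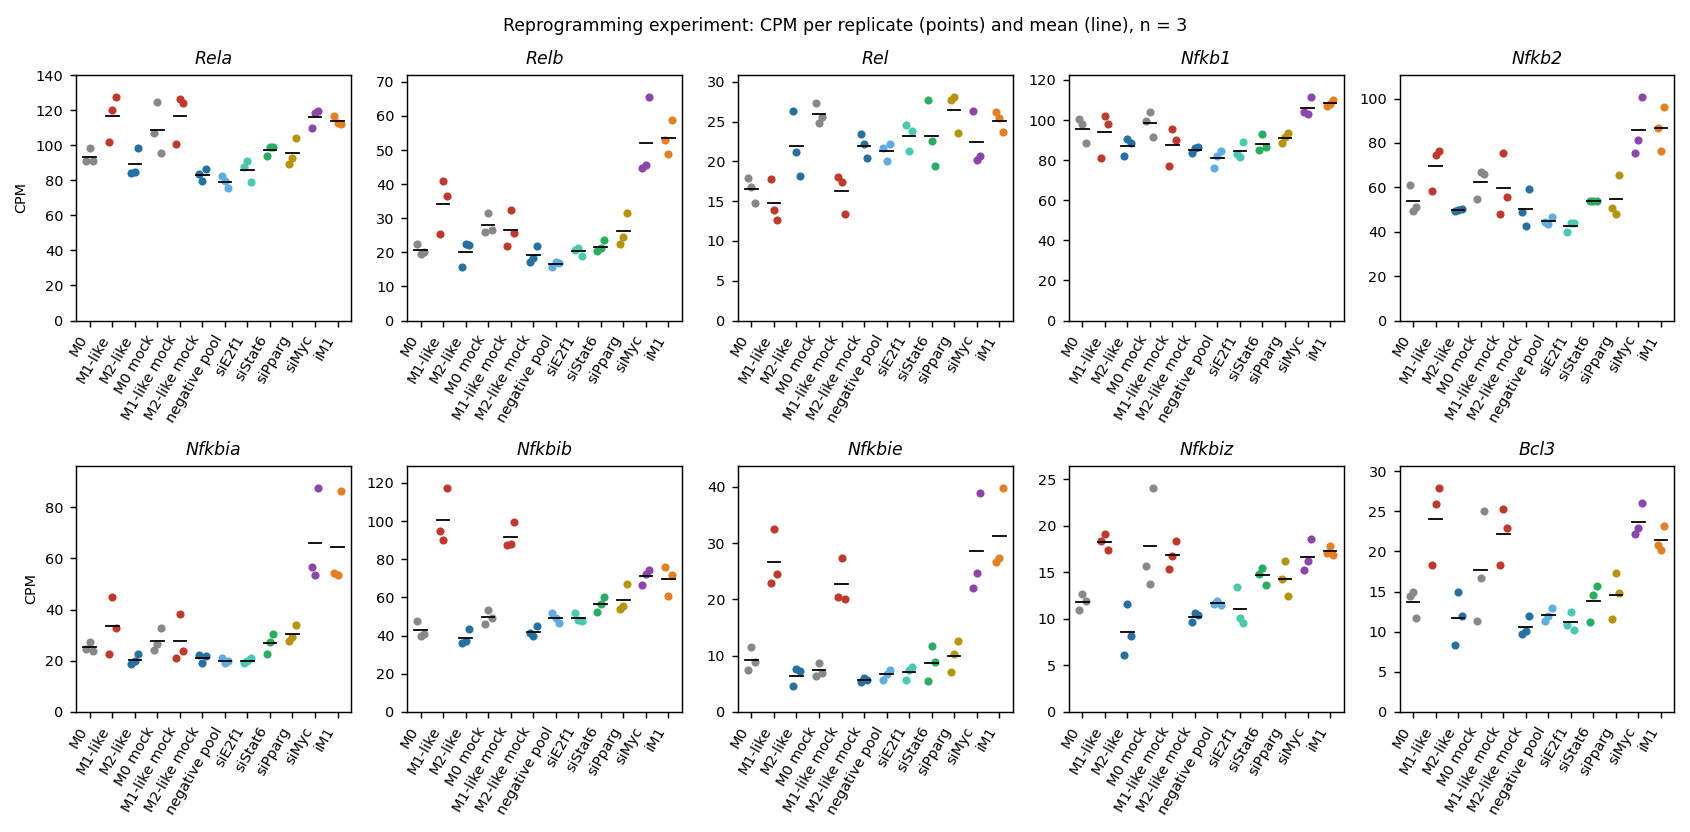
CPM of the 10 genes in the 12 conditions of the reprogramming experiment, with 1 point per replicate and the mean of 3 replicates as a line; each vertical axis starts at 0 and has its own range. Relb and Nfkbia were highest with siMyc and in iM1 macrophages, and Nfkbib in M1-like macrophages. Rel had its lowest means in M1-like macrophages with and without mock transfection. Both overlapped untransfected M0 macrophages in Rel (14.7 to 17.9 CPM).

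Transfection reagent alone changed 2 of the 10 genes by edgeR in M0 macrophages. There 5 members had an unadjusted p below 0.05, against 32.3% of all genes. In M0 mock against M0 macrophages, Rel was higher, at 27.3, 24.9 and 25.5 CPM against 17.9, 16.8 and 14.7 CPM (log2 fold change 0.65 ± 0.14, adjusted p = 0.000736), and so was Nfkbiz (0.58 ± 0.16, adjusted p = 0.0102), where 20.4% of all genes were called, 11.7% higher and 8.66% lower. The call of Nfkbiz rested on M0 mock replicate 3, which had 24.04 CPM beside 15.7 and 13.7 CPM, since without it the log2 fold change was 0.30 (adjusted p = 0.185), and it was lost with only the compared groups in the model (adjusted p = 0.059). Relb (0.44 ± 0.17, adjusted p = 0.0585) was called by DESeq2 (adjusted p = 0.0463), with the replicate block (adjusted p = 0.0236), without a filter on low counts (adjusted p = 0.00144) and with only the compared groups in the model (adjusted p = 0.0152), Bcl3 without M0 mock replicate 1 (0.60, adjusted p = 0.0341) and Rela without M0 mock replicate 3 (0.31, adjusted p = 0.0221). In M1-like macrophages the reagent changed 0 of the 10 genes and 0 of all genes by edgeR, and 1 member, Relb, had an unadjusted p below 0.05 (-0.36 ± 0.16), against 3.09% of all genes. In M2-like macrophages it changed 0 of the 10 genes, with 0 at an unadjusted p below 0.05 (9.01% of all genes), where 1.77% of all genes were called. The negative siRNA pool against mock also gave 0 calls by edgeR, with 1 member, Nfkbib, at an unadjusted p below 0.05 (0.23 ± 0.10, 24% of all genes), where 11.7% of all genes were called, 6.67% higher and 5.03% lower. DESeq2 called 0 members in these 3 comparisons too. The members' log2 fold changes between the negative pool and mock lay between -0.20 and 0.24.

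A list of 12 interferon-stimulated genes was higher in these steps. As it was chosen after the data were seen, its values are a description and no test. Of the list, 10 genes were higher in M2-like mock than in M2-like macrophages (median log2 fold change 3.15) and 10 were higher with the negative pool than with mock (1.91), while the medians of the 10 NF-κB genes were -0.01 and -0.06. The summed interferon-stimulated RNA was 133 to 153 CPM in M2-like, 618 to 1160 CPM in M2-like mock and 3226 to 3586 CPM in negative pool macrophages. It was 3997 to 5250 CPM in iM1 and 3700 to 4675 CPM in siMyc macrophages. The reference of the knockdowns was the negative pool, in which this list was already high.

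**Figure D3:**
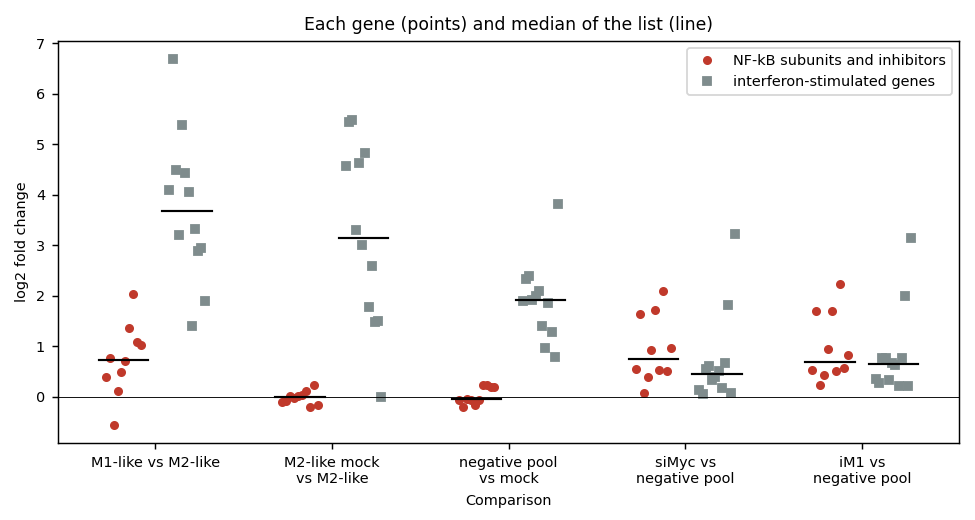
log2 fold changes of the 10 NF-κB genes (circles) and of the tested interferon-stimulated genes (squares) in 5 comparisons, with the median of each list as a line. The median of the NF-κB genes was near 0 for mock and for the negative pool in M2-like macrophages and 0.74 for siMyc and 0.69 for iM1 macrophages. The median of the interferon-stimulated genes, a list chosen after the data were seen, was above 0 for mock and for the negative pool. Their summed RNA was also higher in untransfected M1-like (1743 to 1944 CPM) than in M2-like macrophages (133 to 153 CPM).

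The pools lowered their targets. Myc was at 38.0% ± 8.01 (SD, n = 3) of the negative pool's mean with siMyc and at 39.6% ± 3.20 in iM1 macrophages, E2f1 at 25.2% ± 4.05 with siE2f1 and 60.4% ± 2.01 in iM1, Pparg at 21.9% ± 2.57 and 28.3% ± 2.25, and Stat6 at 27.3% ± 5.79 and 53.9% ± 4.82. Pparg was also below the negative pool with the other single pools, at 65.2% ± 5.72 with siMyc, 79.6% ± 3.92 with siE2f1 and 78.4% ± 1.26 with siStat6.

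With siMyc alone, 9 of the 10 genes were higher than with the negative pool and Rel was not called, where 29.6% of all genes were called in either direction and 13.9% were called higher. Nfkbie rose from 5.66, 6.80 and 7.49 CPM to 22.1, 24.7 and 38.9 CPM (4.27-fold, log2 fold change 2.09 ± 0.24, adjusted p = 9.19e-08). Nfkbia rose from 20.9, 18.9 and 20.1 CPM to 56.6, 53.5 and 87.5 CPM (3.29-fold, 1.72 ± 0.21, adjusted p = 2.15e-07), and Relb from 15.8, 17.2 and 16.8 CPM to 44.7, 45.5 and 65.6 CPM (3.12-fold, 1.64 ± 0.16, adjusted p = 5.95e-09). In these 3 genes siMyc replicate 3 was the highest, and replicates 1 and 2 were also above every negative pool replicate. Nfkb2, the precursor gene of the non-canonical branch, had 44.4, 43.7 and 46.8 CPM with the negative pool and 75.5, 81.3 and 101 CPM with siMyc (0.93 ± 0.14). Bcl3 (0.97 ± 0.20), Rela (0.55 ± 0.09), Nfkbib (0.53 ± 0.10) and Nfkb1 (0.39 ± 0.08) changed less. Nfkbiz, at 11.6, 11.9 and 11.5 CPM against 15.2, 16.2 and 18.6 CPM (0.51 ± 0.16, adjusted p = 0.0169), lost its call without siMyc replicate 3 (0.42, adjusted p = 0.0858) or negative pool replicate 3 (0.50, adjusted p = 0.0539). Rel had 21.7, 20.1 and 22.1 CPM with the negative pool and 26.3, 20.2 and 20.7 CPM with siMyc, so the groups overlapped (0.07 ± 0.13, 95% interval -0.20 to 0.35). Of the 7 macrophage markers, 5 were lower with siMyc than with the negative pool (median log2 fold change -0.32), and of the 5 B cell markers none was called (summed level 27.97 to 76.98 CPM against 18.6 to 47.7 CPM). Of the neutrophil, the dendritic cell and the mesothelial cell and fibroblast markers, 1 each was lower. Their part in the increase of the 9 genes was not tested.

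In iM1 macrophages, which carried the Myc pool together with the other 3, again 9 genes were higher than with the negative pool and Rel was not called (26.5% of all genes called in either direction, 12.5% called higher). Nfkbie had 26.6, 27.3 and 39.8 CPM (2.23 ± 0.24, adjusted p = 3.59e-08), Nfkbia 54.3, 53.4 and 86.3 CPM (1.69 ± 0.21, adjusted p = 3.18e-07) and Relb 52.9, 48.8 and 58.8 CPM (1.69 ± 0.16, adjusted p = 3.76e-09). As with siMyc, replicate 3 was the highest in each of these genes. The 9 calls held in all 6 fits that left out a replicate. Rel (0.24 ± 0.13, adjusted p = 0.202) was called with only the compared groups in the model (adjusted p = 0.0401). Against mock in place of the negative pool, the same 9 genes were higher, with Nfkbie at 2.47 ± 0.25 and Rel at 0.19 ± 0.13. There 37.1% of all genes were called in either direction and 19% were called higher. The comparisons of siMyc and of iM1 with the negative pool share those 3 control libraries, so iM1 was also compared with siMyc directly, a comparison added after these values were seen. It gave 0 members called by edgeR and by DESeq2, and 0 at an unadjusted p below 0.05, where 0.0494% of all genes were called. The differences lay between -0.15 (Bcl3, 95% interval -0.54 to 0.24) and 0.16 (Rel, -0.11 to 0.43). The widest interval, that of Nfkbie, ran from -0.30 to 0.57. With 3 replicates, differences within a gene's own interval were not excluded.

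**Figure D4:**
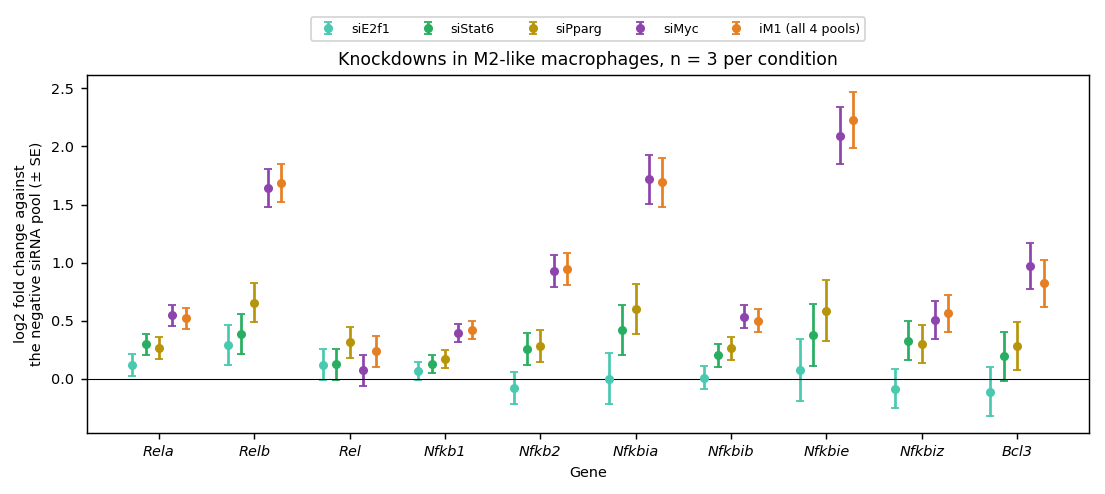
log2 fold change against the negative siRNA pool (points) with its standard error (bars) for the 10 genes in siE2f1, siStat6, siPparg, siMyc and iM1 macrophages, 3 replicates each. siMyc and iM1 lie close together for each gene, up to 2.09 and 2.23 for Nfkbie, while siE2f1 stays between -0.11 and 0.29.

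The other 3 pools gave smaller values. With siE2f1, edgeR and DESeq2 called 0 members and 0 had an unadjusted p below 0.05 (10.9% of all genes), where 0.91% of all genes were called, and the log2 fold changes lay between -0.11 and 0.29. With siStat6, 0 members were called by either tool and 2 had an unadjusted p below 0.05 (12.1% of all genes), where 1.51% of all genes were called, with all 10 fold changes above 0, from 0.12 to 0.42. With siPparg, Relb was called, at 22.5, 24.5 and 31.6 CPM against 15.8, 17.2 and 16.8 CPM (0.66 ± 0.17, adjusted p = 0.0159), where 5.74% of all genes were called, 2.71% higher and 3.03% lower, and 7 members had an unadjusted p below 0.05, against 19.3% of all genes. This call was lost without siPparg replicate 3 (0.50, adjusted p = 0.164), without negative pool replicate 1 (0.62, adjusted p = 0.0743) or 3 (0.67, adjusted p = 0.059), and with mock as the reference (0.45, adjusted p = 0.0607). Nfkbia had 27.8, 29.1 and 34.1 CPM with siPparg and was not called (0.60 ± 0.21, adjusted p = 0.0956), although every replicate was above those of the negative pool. Both counts depended on the setting. With siPparg, Rel (0.31, adjusted p = 0.0396) and Nfkbia (0.59, adjusted p = 0.0427) were called beside Relb with the replicate block, Nfkbia and Nfkbie (0.59, adjusted p = 0.00587) without a filter on low counts, and Nfkbia and Rela (0.26, adjusted p = 0.0375) with only the compared groups in the model, while with mock as the reference Nfkbib (0.49), Nfkbie (0.83) and Nfkbiz (0.49) were called. With siStat6, Nfkbia (0.42, adjusted p = 0.0306) was called without a filter, Rela (0.30) and Relb (0.39) with only the compared groups, and Nfkbib (0.43) and Nfkbiz (0.52) with mock as the reference.

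Whether siMyc differed from the other single pools was tested directly, also in comparisons added after these values were seen. Against siE2f1, 9 members were higher with siMyc (26% of all genes called in either direction, 12.5% called higher), with Rel not called. Against siPparg and against siStat6, 8 members were higher, with Rel and Nfkbiz not called (21.8% and 25.2% of all genes called in either direction, 9.5% and 11.7% called higher). Nfkbie differed by 1.51 ± 0.23 from siPparg and by 1.72 ± 0.24 from siStat6, Nfkbia by 1.12 ± 0.20 and 1.30 ± 0.21, and Relb by 0.99 ± 0.16 and 1.26 ± 0.16. These 3 genes and Nfkb2 were called without any of the replicates, whereas leaving out single replicates reduced the count to between 4 and 7 against siPparg and between 5 and 8 against siStat6, where Rela, Nfkb1, Nfkbib and, against siPparg, Bcl3 lost their calls. The fewest calls against siPparg, 4, came without siMyc replicate 3 or siPparg replicate 1, and against siStat6, 5, without siMyc replicate 3. Against siPparg, Rel was called as lower with siMyc with the replicate block (-0.25, adjusted p = 0.0499), and Nfkb1 was not called without a filter on low counts (0.22, adjusted p = 0.0772).

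The make-up of the subunits also differed with siMyc. Relb made up 8.64% ± 0.43 (SD, n = 3) of the summed subunit RNA per kilobase of exon with the negative pool, 16.3% ± 2.22 with siMyc and 16.8% ± 0.92 in iM1 macrophages. No knockdown overlapped the negative pool (8.15% to 8.96%) in this share. It was 9.53% to 10.1% with siE2f1, 8.99% to 10.1% with siStat6 and 10.2% to 12.1% with siPparg, so siMyc and iM1 differed in size. M2-like mock macrophages, at 8.47% to 9.91%, overlapped siE2f1 and siStat6. Untransfected M2-like macrophages, at 7.71% to 10.6%, overlapped siE2f1, siStat6 and siPparg. Rela went from 52.2% ± 1.94 with the negative pool to 46.4% ± 2.73 with siMyc and 45.2% ± 1.95 in iM1 macrophages, although its own level rose. The ratio of classical inhibitors to subunits per kilobase was 0.752 ± 0.0217 with the negative pool, 1.01 ± 0.103 with siMyc, 1.001 ± 0.151 in iM1, 0.999 ± 0.0422 in M1-like mock and 0.646 ± 0.0102 in M2-like mock macrophages.

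iM1 macrophages were set beside M1-like mock macrophages to see how near the members came to the polarized state. Relb (1.003 ± 0.157), Nfkbia (1.21 ± 0.20), Rel (0.62 ± 0.14), Nfkb2 (0.53 ± 0.14) and Nfkb1 (0.31 ± 0.08) were higher in iM1 macrophages and Nfkbib was lower (-0.41 ± 0.10). Of all genes, 52.9% were called in either direction, 27.2% higher and 25.6% lower. Nfkbia had 21.2, 38.1 and 23.97 CPM in M1-like mock and 54.3, 53.4 and 86.3 CPM in iM1 macrophages, without overlap. Nfkbib had 87.6, 88.1 and 99.7 CPM in M1-like mock and 75.7, 60.7 and 71.7 CPM in iM1 macrophages. Rela (-0.04 ± 0.09), Nfkbiz (0.04 ± 0.16) and Bcl3 (-0.05 ± 0.19) were not called, and Nfkbie (0.46 ± 0.22, adjusted p = 0.0735) was called without M1-like mock replicate 2 (0.62, adjusted p = 0.0347), with the replicate block (0.45, adjusted p = 0.0132), without a filter on low counts (adjusted p = 0.00135) and with only the compared groups in the model (adjusted p = 0.0217). Markers of several cell types moved with this comparison. All 5 B cell markers were higher in iM1 than in M1-like mock macrophages, with a summed level of 29.4 to 124 CPM against 5.60 to 21.3 CPM, and so were the 4 mesothelial cell and fibroblast markers tested of 5 (134 to 219.6 CPM against 11.4 to 24.8 CPM for the list). The eosinophil markers summed to 22.98 to 35.1 CPM against 0.737 to 1.28 CPM, the mast cell markers to 4.20 to 5.23 CPM against 0.174 to 0.344 CPM, and the macrophage markers, 5 of 7 higher, to 11815 to 12796 CPM against 6211 to 7203 CPM. Against the negative pool, with 18.6 to 47.7 CPM, none of the 5 B cell markers was called in iM1 macrophages. The part of these cell types in the differences of the members from M1-like mock macrophages was not tested.

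Between M1-like mock and M2-like mock macrophages, 6 members were higher and Rel was lower in M1-like mock (60.7% of all genes called in either direction, 30.9% higher and 29.8% lower). Nfkbie was highest in fold, with 20.4, 27.4 and 20.1 CPM against 5.25, 6.03 and 5.65 CPM (2.01 ± 0.25), followed by Nfkbib (1.13 ± 0.10) and Bcl3 (1.07 ± 0.21). Relb (0.48 ± 0.17) was not called without M1-like mock replicate 2 (0.31, adjusted p = 0.138) or M2-like mock replicate 1 (0.41, adjusted p = 0.0646), and Rel (-0.43 ± 0.14) not without M1-like mock replicate 3 (-0.31, adjusted p = 0.0669). Nfkb2 (0.25 ± 0.14, adjusted p = 0.112) and Nfkbia (0.40 ± 0.21, adjusted p = 0.104) were not called, but both were without M1-like mock replicate 1 (0.39 and 0.57), as was Nfkb2 without M2-like mock replicate 3 (0.39), and both were called without a filter on low counts (0.24 and 0.39). For no member did the effect of the reagent differ between the M1-like and the M2-like state by an interaction test in edgeR or DESeq2 (0 members at an unadjusted p below 0.05, 7.5% of all genes), where 1.13% of all genes were called.

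**Figure D5:**
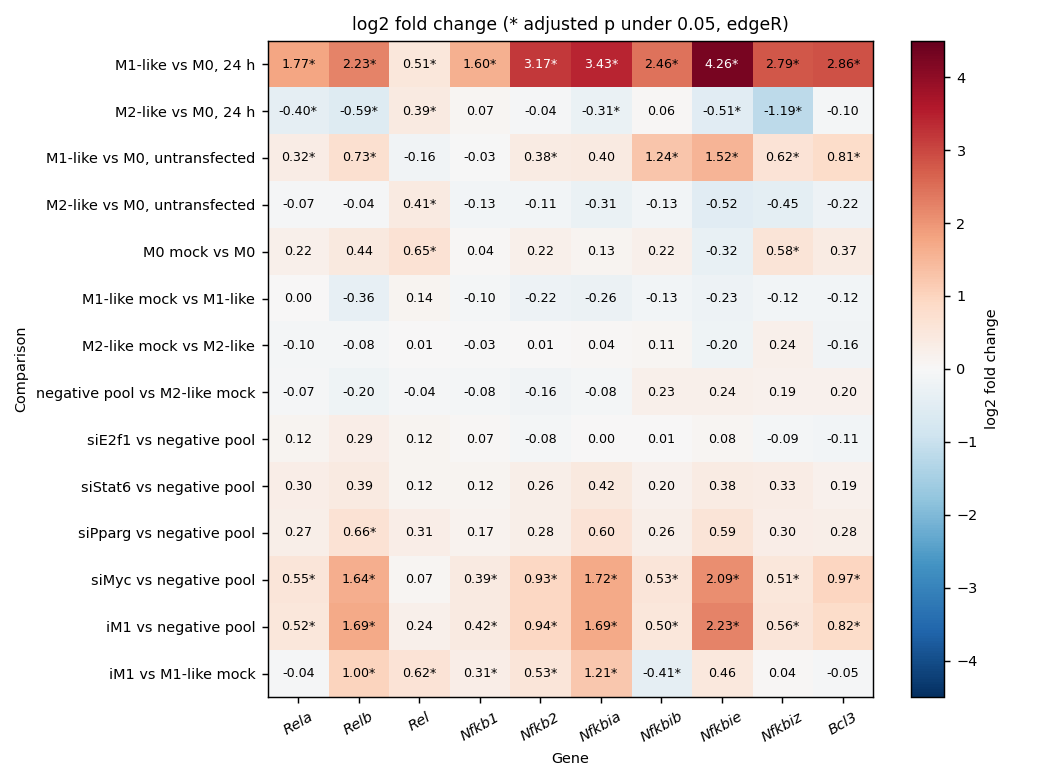
log2 fold changes of the 10 genes (columns) in 14 comparisons (rows), with red for higher and blue for lower in the condition named first and an asterisk at an adjusted p below 0.05 in edgeR. The rows of siMyc and iM1 against the negative pool hold 9 asterisks each, those of M1-like mock, M2-like mock, the negative pool, siE2f1 and siStat6 hold 0, and the rows against M0 of the polarization experiment (24 h) and of the reprogramming experiment were not compared with each other.

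The wider pathway in the knockdowns was described with the same lists, beside 29.6% of all genes called in either direction with siMyc and 26.5% in iM1 macrophages. Of 21 target genes tested, 11 were higher and 1 lower with siMyc than with the negative pool (median log2 fold change 0.63), and 12 were higher and 1 lower in iM1 macrophages (0.69), against medians of 0.00 and 0.01 over all genes. Tnf rose by 1.35 ± 0.19 with siMyc and 1.49 ± 0.19 in iM1, and Icam1 by 2.15 ± 0.26 and 2.29 ± 0.26. Il6 was called with siMyc (1.67 ± 0.59, adjusted p = 0.0313) and had 1.55 ± 0.61 in iM1 macrophages (adjusted p = 0.0579), and iM1 did not differ from siMyc by a call in the direct comparison (-0.13 ± 0.48), while Il1b, Cxcl1 and Tnfaip2 were not called in either. Of the 12 feedback inhibitors, 5 were higher and 1 lower with siMyc and 6 and 2 in iM1 macrophages. Tnfaip3 rose by 0.57 ± 0.09 and 0.62 ± 0.09, Tnip3 by 0.79 ± 0.18 and 0.90 ± 0.18, and Zc3h12a, which encodes the RNase Regnase-1, by 0.52 ± 0.11 and 0.41 ± 0.11. Of the 15 kinases and genes of the non-canonical branch, 6 were higher and 3 lower in both. Cd40 rose by 1.13 ± 0.21 and 1.41 ± 0.21, Traf3 by 0.67 ± 0.07 and 0.75 ± 0.07 and Ikbkg, the regulatory subunit of the IκB kinase complex, by 0.41 ± 0.08 and 0.42 ± 0.08, while Map3k14 was not called. Of the 17 receptors and adaptors, 3 were higher and 3 lower with siMyc and 3 and 2 in iM1 macrophages.

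Across the 12 condition means of the reprogramming experiment, the spans of the members ranged from 2.42 on the log2 scale for Nfkbie (highest in iM1, lowest in M2-like mock) to 0.42 for Nfkb1 (highest in iM1, lowest with the negative pool). By Pearson correlation of log2 CPM over these 12 means, which share libraries' depth and composition and are given as a description among 10134 genes, the genes most like Nfkb2 were Relb (0.97), Klc2 (0.96) and Nfkbia (0.95), and those most like Nfkbia were Relb (0.97), Ctu1 (0.97) and Camta2 (0.96). Those most like Relb were Camta2, Dapk3 and Nfkbia (0.97 each), and Bcl3 was among the 3 most like Rela (0.96, after Zfp444 and Nudcd3). Nfkbib was closest to Odc1 (0.99), Ankrd24 (0.99) and Gm10169 (0.99), and Nfkbie to Smg9, Timm44 and Adora2a (0.97 each). Nfkbiz followed Adra1a, Lrp10 and Psmd3 (0.96, 0.96 and 0.95), Bcl3 followed Rab5if, Fip1l1 and Dhx30 (0.98, 0.97 and 0.97) and Nfkb1 followed Vps72, Cdc42bpb and Dnajc11 (0.95, 0.94 and 0.92). Rel stood apart from the other members, with correlations between -0.43 (Nfkbib) and 0.16 (Nfkb1), and was closest to Litaf, Cyfip2 and Tor2a (0.95 each).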

How the data were processed

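Read counts of 18 libraries of the polarization and 36 libraries of the reprogramming experiment were used. The authors trimmed reads with Trimmomatic, mapped them to GRCm38/mm10 with TopHat2 and counted them per gene with featureCounts, and the deposited values are raw read counts without normalization. Strand setting and tool versions are not given in the sources used here. The technical replicates had a chi-square per gene of 1.07 to 1.10, against 3.63 to 52.4 between mice, and were summed. Between 13421854 and 29880494 reads per library were counted, and the 10 genes had enough reads in each condition to be tested. Gene symbols, coordinates and lengths come from GENCODE M21 (37693 of 39179 identifiers matched).

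Genes were filtered with filterByExpr (minimum count 10, minimum total count 15), scaled by TMM and tested in edgeR by quasi-likelihood (two-sided, Benjamini-Hochberg over all genes tested), in 1 model per experiment with 1 coefficient per condition. The standard error is the log2 fold change divided by the square root of F, and 95% intervals use its t quantile. Alternatives were DESeq2, RLE size factors, other filters, a fold threshold, the replicate block, only the compared groups, unsummed technical replicates and leaving out replicates. The mouse numbers of the polarization experiment pair its samples by animal (median correlation of deviations 0.25 for the same mouse and -0.14 otherwise). R 4.3.3, edgeR 4.0.16, DESeq2 1.42.0, limma 3.58.1, Python 3.11.15, matplotlib 3.10.9, pandas 2.3.3, SciPy 1.17.1 and NumPy 2.4.6 were used.

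The members and lists were chosen with earlier results of these data known. All 10 members are named, of the lists the feedback inhibitors and non-canonical genes that passed the test and Tnf, Il6, Il1b, Cxcl1, Icam1 and Tnfaip2, and for likeness the 3 genes with the highest correlation. The direct comparisons with siMyc, mock as the reference of the single pools and the interferon list were added after the data were seen. CPM per kb used the union of exons, with the longest coding transcript as a second length. Of the marker lists, 1 gene is not reported here and was left out of the sums.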

Additional observations from a re-analysis of the deposited data

Results flagged for a closer look

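The effect of transfection reagent was tested for a difference between M1-like and M0 macrophages as an interaction in edgeR, and 2 of the 10 genes differed, where 9.07% of all genes were called. The reagent's log2 fold change was 0.44 in M0 and -0.36 in M1-like macrophages for Relb, and 0.58 and -0.12 for Nfkbiz. For Relb the difference of the log2 fold changes was -0.80 ± 0.23 (adjusted p = 0.0236). It had 22.5, 19.5 and 20.1 CPM in M0 and 25.9, 31.4 and 26.6 CPM in M0 mock macrophages, but 25.3, 40.9 and 36.7 CPM in M1-like and 21.9, 32.5 and 25.6 CPM in M1-like mock macrophages. For Nfkbiz the difference was -0.70 ± 0.23 (adjusted p = 0.0469), with M0 mock replicate 3 at 24.04 CPM beside 15.7 and 13.7 CPM. Without that replicate it was -0.42 (adjusted p = 0.216). Each call was lost in most of the 12 fits that left out a replicate, and the count of members called in these fits ran from 0 to 2. The interferon-stimulated genes, a list chosen after the data were seen, moved with the reagent in M0 macrophages (11 of 12 higher, median log2 fold change 3.31). There 11.7% of all genes were called higher. In M1-like macrophages 0 of the 12 and 0 of all genes were called. The part of the interferon-stimulated genes in the differences of Relb and Nfkbiz was not tested.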

How the results depend on the processing

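No member's call changed direction under any alternative, and RLE size factors and a minimum of 10 counts in every sample changed no call. DESeq2 added the call of Relb in M0 mock against M0. RLE in place of TMM moved the log2 fold changes by at most 0.04. Where a count of members moved by over 1.5 times, the cause was not tested unless the setting itself is the cause. The counts below are given without the share of all genes called at the same setting. They describe how the calls depended on the setting and are not read as a trait of the members.

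A fold threshold of 1 on the log2 scale left, by its construction, 1 member in M2-like against M0 at 24 h, 2 in M1-like against M0, 0 in M2-like against M0, 4 in M1-like against M2-like, 3 in the same comparison of mock, 0 in M0 mock against M0, 4 and 3 in iM1 against mock and the negative pool, 3 in siMyc and 0 in siPparg against the negative pool, 2 in iM1 against M1-like mock, 0 in the interaction of M1-like with M0, and 5, 2 and 3 in siMyc against siE2f1, siPparg and siStat6. Without a filter on low counts, 3 members were called in M2-like against M0, 4 in M0 mock against M0, 3 with siPparg, 1 with siStat6 and 4 in the interaction of M1-like with M0. With only the compared groups in the model, 3 were called with siPparg and 2 with siStat6, and with mock as the reference again 3 and 2.

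Leaving out replicates gave 10 to 10 members in M1-like against M0 at 24 h, 5 to 6 in M2-like against M0 and 9 to 10 in M1-like against M2-like. In the reprogramming experiment it gave 6 to 8 in M1-like against M0, 0 to 1 in M2-like against M0, 8 to 10 in M1-like against M2-like, 6 to 9 in the same comparison of mock, 2 to 3 in M0 mock against M0, 6 to 7 in iM1 against M1-like mock, 9 to 9 in iM1 against mock and against the negative pool, 8 to 9 with siMyc, 0 to 1 with siPparg, 9 to 9, 4 to 7 and 5 to 8 in siMyc against siE2f1, siPparg and siStat6, 0 to 2 in the interaction of M1-like with M0, and 0 to 0 in the comparisons with 0 members called.

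With the replicate block, the counts of members were unchanged in the polarization experiment (10, 6 and 9), and in the reprogramming experiment siPparg went from 1 to 3, 6 calls of single members were gained and 0 lost, namely Rel and Nfkbia with siPparg, Relb in M0 mock against M0, Nfkbie in iM1 against M1-like mock, and Rel, as lower, in siMyc against siPparg (which then had 9 members called) and in the interaction of M1-like with M0 (-0.51, adjusted p = 0.0143). The labels tie replicates of the reprogramming experiment only by a number, and what it stands for is not stated. Samples with the same number were more alike (median correlation of deviations 0.18, against -0.08 otherwise). Of the pairs with the same number, 131 of 198 correlated above 0.1, and 34 of 36 samples were closest to their own number. The main model held no block in either experiment, so this likeness was left out of the main calls. Under the block, the calls of siE2f1 over all genes went from 129 to 236.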
